A study of Mus musculus with 4 samples.

Results

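The oxytocin and vasopressin neurons of the mouse hypothalamus were examined as the nuclei that the authors annotated Oxytocin+, AVP Neurons within their large neuronal cluster, Neurons_1. Membership was taken from that annotation alone and gave 366 nuclei of 35756 in Neurons_1 and of 56386 in the whole series. The nuclei came from 4 single-nucleus RNA sequencing libraries of hypothalamus from adult male mice bred on a C57/BL6NCr background. A pair of libraries was wild type (WT) and the other pair was TRα1+m, heterozygous for a germline point mutation in the thyroid hormone receptor TRα1. Each library held pooled nuclei of 3 mice of a single genotype, and experimental repeats 1 and 2 each gave a WT and a TRα1+m library, so that n = 2 libraries per genotype. The mutation exchanges an amino acid and leaves the gene in place, so the level of Thra cannot check the genotype labels. Values for single libraries are given in the fixed order WT repeat 1, WT repeat 2, TRα1+m repeat 1 and TRα1+m repeat 2. In that order there were 107, 77, 134 and 48 member nuclei with 550427, 518541, 667295 and 307289 unique molecular identifiers (UMIs, each a counted transcript), and the median was 4770, 6138, 4679 and 5989 UMIs per nucleus. Of 56077 different barcodes 309 occurred in more than a single library, 3 of them carried by a member nucleus and by a nucleus outside the members in another library, and 0 were shared between member nuclei.

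Oxytocin and vasopressin are short peptide hormones made by large (magnocellular) neurons of the paraventricular and supraoptic nuclei. Their precursors are cleaved in secretory granules, carried along axons to the posterior pituitary and released into blood, oxytocin for milk ejection and labour and vasopressin for water retention. A magnocellular neuron mostly makes a single hormone of the pair, although the genes are neighbours. Thyroid hormone acts through nuclear receptors, and a TRα1 with lowered affinity for the hormone acts as a dominant repressor.

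Oxt (ENSMUSG00000027301) and Avp (ENSMUSG00000037727) lie tail to tail, Oxt on the plus strand at chr2:130576173-130577054 and Avp on the minus strand at chr2:130580620-130582554 (GRCm38, GENCODE M21). The 250 bases before each start in RefSeq are shown because the genes share a neighbourhood and yet were split between nuclei. The sequences are RefSeq's on GRCm38.p6, 5′ to 3′ on the strand of the gene, chr2:130575919-130576168 (plus) for Oxt and chr2:130582589-130582838 (minus) for Avp. Both RefSeq starts lie upstream of the GENCODE starts above, and distances of motifs are counted from the RefSeq starts. Capitals mark AGGTCA or its reverse complement TGACCT, the core motif of nuclear receptors, and CACGTG, an E-box, both searched on both strands.
Oxt: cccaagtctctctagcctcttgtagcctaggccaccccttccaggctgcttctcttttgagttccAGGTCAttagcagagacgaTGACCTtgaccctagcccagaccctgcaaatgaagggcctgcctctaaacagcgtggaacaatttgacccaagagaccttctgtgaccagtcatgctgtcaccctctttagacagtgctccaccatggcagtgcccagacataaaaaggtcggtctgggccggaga
Avp: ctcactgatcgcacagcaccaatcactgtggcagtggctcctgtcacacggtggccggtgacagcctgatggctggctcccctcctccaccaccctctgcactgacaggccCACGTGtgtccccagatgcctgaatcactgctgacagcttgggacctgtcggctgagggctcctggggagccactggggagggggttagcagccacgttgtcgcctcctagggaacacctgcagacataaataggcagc
The Oxt window held 2 nuclear receptor motifs, AGGTCA 185 bases and TGACCT 166 bases before the start, and no E-box. The Avp window held an E-box 139 bases before the start and no nuclear receptor motif. Of 32851 promoter windows of this length in RefSeq, 14.02% held the nuclear receptor motif, 1.36% held at least 2 copies, and 6.02% held the E-box. The matches describe the sequence only.

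Both hormones marked these nuclei in all 4 libraries, at levels that depended on the repeat. Oxt stood at 6249.7, 33076, 3787 and 12740.4 CPM, the usual depth-scaled count, here relative to all UMIs of the summed member nuclei, and Avp at 5923, 36626, 6964 and 36207 CPM. Both libraries of repeat 2 were above both of repeat 1 for each hormone. Oxt and Avp together took 62.6, 469, 53.5 and 313 UMIs per nucleus. In glia the order was turned around. In astrocytes, which do not make the hormones, Oxt stood at 705, 118, 494 and 74.8 CPM and Avp at 502, 215, 508 and 209.99 CPM, higher in both libraries of repeat 1. An Oxt UMI was found in 65.5, 18.6, 53.1 and 8.24% of astrocytes, at medians of 1781, 2200, 1662 and 1958 UMIs per nucleus, and the source of these UMIs was not tested. Members stood 8.87, 280.2, 7.66 and 170.4 times above astrocytes for Oxt and 11.8, 171, 13.7 and 172 times for Avp. In GABA neurons Oxt was at 511, 53.3, 222 and 25.4 CPM, and a single nucleus held 41.8% of the Oxt UMIs of WT repeat 1.

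**Figure D1:**
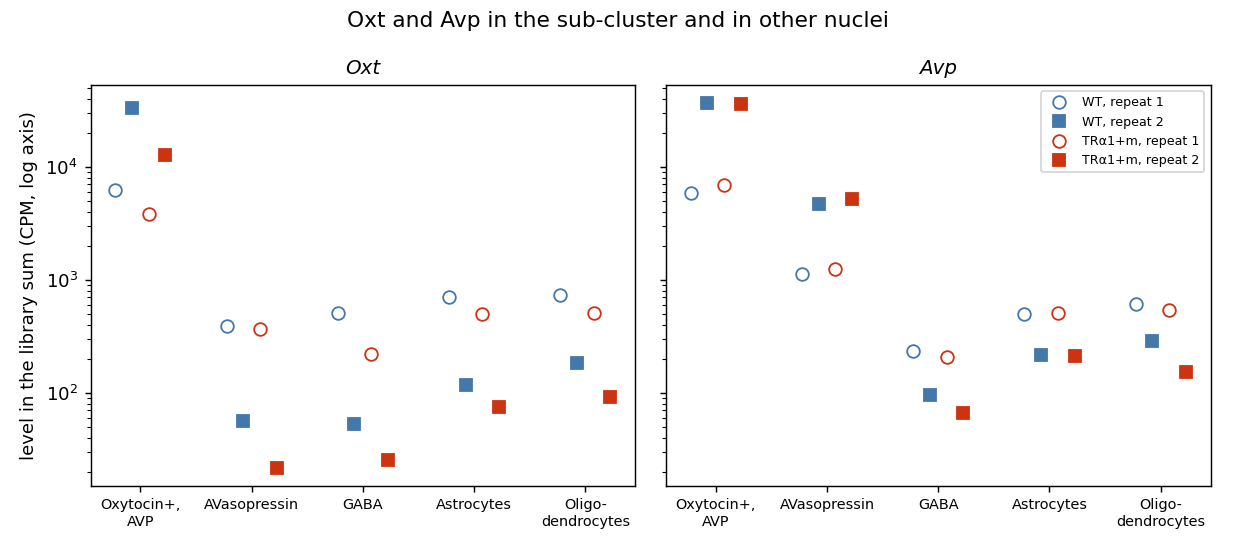
Oxt (left) and Avp (right) as CPM on a log axis in the summed nuclei of 5 annotated groups, with a point per library coloured by genotype and shaped by repeat. In the Oxytocin+, AVP nuclei both hormones were higher in repeat 2, and in astrocytes and oligodendrocytes both were higher in repeat 1.

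Not all hormone-rich nuclei were members. Of 205 annotated nuclei with at least 20 Oxt UMIs, 119 were members (58.05%). Of 445 with at least 20 Avp UMIs, 221 were members (49.7%) and 142 belonged to the separate sub-cluster that the authors named AVasopressin. The 1182 AVasopressin nuclei carried 1117, 4653, 1240.3 and 5159 CPM Avp. Vip, Lhx1 and Rorb, genes of the suprachiasmatic nucleus, had means of 358, 62.1 and 2265 CPM there, against 2.62, 3.06 and 105 CPM in the Oxytocin+, AVP nuclei.

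Beside the hormones, the nuclei carried transcription factors that specify paraventricular and supraoptic neurons. Sim1 was at 616, 592, 616 and 517 CPM, a mean of 585 ± 46.6 (SD, n = 4) against 52.7 in all other Neurons_1 nuclei. Pou3f2 (119 ± 11.4 against 12.9 CPM), Otp (35.9 ± 9.41 against 8.83 CPM) and Arnt2 (239 ± 33.3 against 116 CPM) were on the same side. Sim2, also listed with them, had 0 UMIs, which allows up to 1.47 CPM, against 1.35 CPM. These genes were open to the clustering, so no test was made of these nuclei against the rest. Ranked by the ratio of the mean CPM to that of other Neurons_1 nuclei, Pla2r1, a phospholipase A2 receptor, came first with 67.2, 34.7, 89.9 and 87.9 CPM against 0.577, a ratio of 121. Avp (96.3), Oxt (66.9), the dynein gene Dnah8 (31.3) and the metalloprotease gene Adamts12 (16.7) followed among others. The order depended on the library. The ratios were 117, 66.9, 96.5 and 310.2 for Pla2r1, 23.5, 159, 30.3 and 204 for Avp, 16.2, 213, 15.9 and 228 for Oxt and 40.3, 29.1, 38.9 and 18.4 for Dnah8, so that Dnah8 was above both hormones in repeat 1 and both hormones were above Pla2r1 in WT repeat 2. Caprin2, whose protein binds vasopressin mRNA, had a ratio of 13.4, Angpt1, a ligand of the receptor Tie2, 10.1, Kcnmb4, a subunit of the large-conductance potassium channel, 7.996, and Foxp2, a forkhead factor, 7.67.

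Slc17a6, the glutamate transporter VGLUT2, was at 105, 135, 95.9 and 111 CPM, a mean of 112 ± 16.7 (SD, n = 4) against 51.1 in GABA neurons, 39.6 in AVasopressin nuclei and 150.01 in all other Neurons_1 nuclei. The GABA genes Gad1, Gad2 and Slc32a1 were at 22.9 ± 4.31, 38.1 ± 2.52 and 12.3 ± 7.43 CPM, against 111, 266 and 149 CPM in GABA neurons. Markers of glial and vascular cells were mostly near or below their level in other Neurons_1 nuclei, with TRα1+m repeat 1 above it for 4 of 6 lists. The 4 neuronal markers, led by Syt1, were below it in all 4 libraries, with sums of 1820, 1907, 2236 and 1894 CPM against 3304. All 5 astrocyte markers were detected and summed to 262, 193, 340.2 and 133 CPM, led by Slc1a2, against 297 in other Neurons_1. All 5 oligodendrocyte markers were detected and summed to 193, 156, 216 and 153 CPM against 273, and all 4 microglial markers to 30.9, 38.6, 56.9 and 55.3 CPM against 55.7. Both markers of oligodendrocyte precursors, led by Pdgfra, summed to 1.82, 5.79, 16.5 and 0 CPM against 7.03, and 3 ependymal and tanycyte markers, led by Rax, to 9.08, 5.79, 17.98 and 3.25 CPM against 8.91, where WT repeat 1 was above that level too. Of 5 vascular markers Dcn was at 0, Pecam1 was the most abundant, and the sum was 12.7, 9.64, 5.99 and 0 CPM against 72.3. The part of such RNA in the results was not tested. The receptors of the hormones were near or at 0. Oxtr, Avpr1b and Avpr2 had 0 UMIs in 2043552, which allows up to 1.47 CPM for counting error alone, and Avpr1a had 2 UMIs. Of the pituitary hormones Prl and Gh had 0 UMIs and Cga 3, and the immediate early gene Fos had 3.

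The share of these nuclei in Neurons_1 did not separate the genotypes. It was 1.12% (95% exact binomial interval 0.918 to 1.35), 0.8801% (0.695 to 1.099), 1.26% (1.06 to 1.49) and 0.703% (0.519 to 0.932). These intervals cover counting error only. The mean was 0.999 ± 0.169% (SD, n = 2) in WT and 0.983 ± 0.395% in TRα1+m, the groups overlapped, and an exact two-sided permutation test gave p = 1. With 2 libraries against 2 the smallest p of that test is 0.333.

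The hormones were split between nuclei. Of the 366 nuclei, 329 held at least 20 UMIs of Oxt and Avp together. Among these 103 were Oxt-leading, with at least 75% of the hormone UMIs from Oxt (30, 25, 39 and 9 by library), 217 were Avp-leading, with at most 25% from Oxt (56, 48, 77 and 36), and 9 lay in between (3, 3, 2 and 1). With wider limits, 29 nuclei had more than 10% and less than 90% of their hormone UMIs from Oxt (6, 5, 14 and 4 by library), with the most in TRα1+m repeat 1. The median nucleus of the Oxt-leading class held 76, 617, 48 and 435 Oxt UMIs and 1, 1, 1 and 0 Avp UMIs. That of the Avp-leading class held 41.5, 350, 43 and 259 Avp UMIs and 1, 1, 2 and 6 Oxt UMIs. The Avp-leading nuclei of TRα1+m repeat 2 held 13.2 Oxt UMIs per nucleus on average against 1.59, 3.50 and 2.73 in the other libraries, while the astrocyte level of Oxt was the lowest in that library. Their Avp UMIs per nucleus averaged 52.7, 379, 57.6 and 307 in the fixed order. Relative to Avp, the Oxt of TRα1+m repeat 2 was thus close to that of TRα1+m repeat 1. Oxt and Avp defined the classes, so these values are a description with no test.

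**Figure D2:**
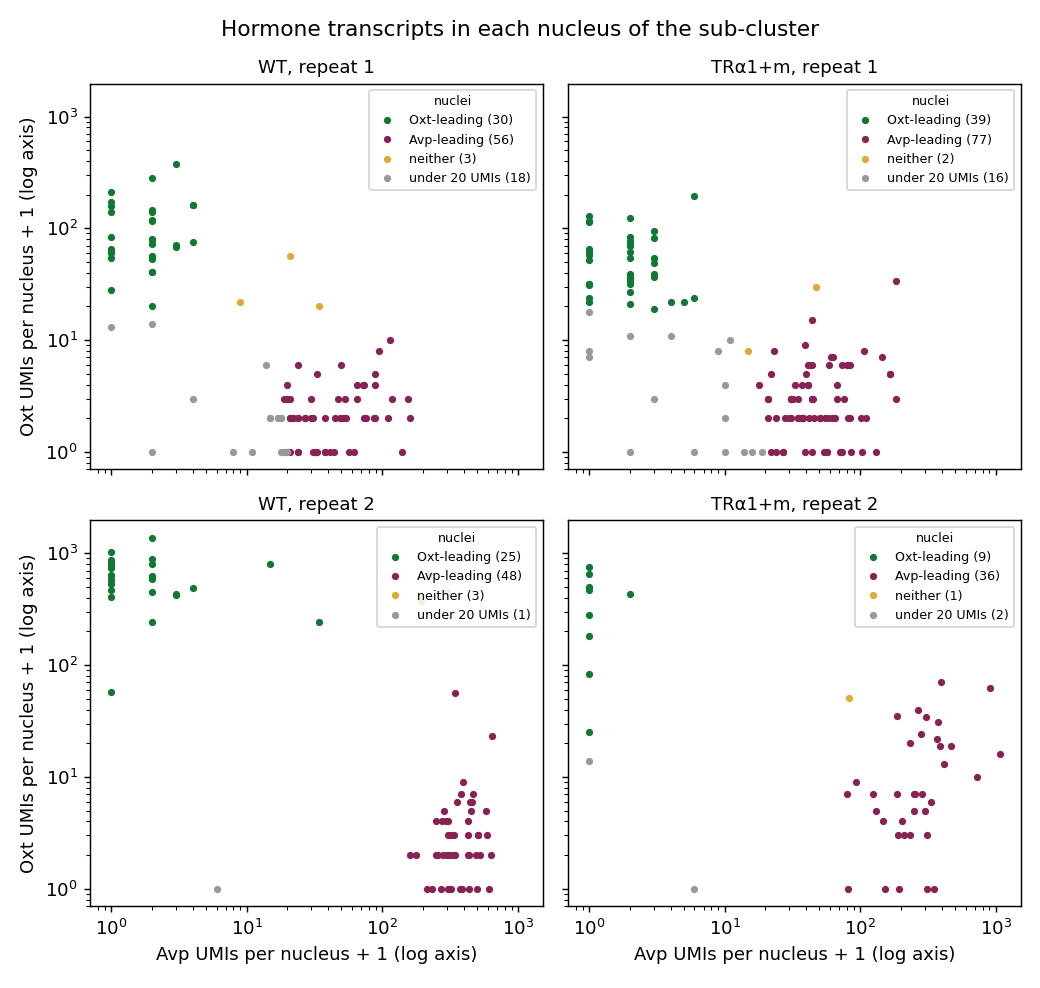
Oxt UMIs (vertical) against Avp UMIs (horizontal) of each of the 366 nuclei, plus 1 on log axes, with a panel per library and the number of nuclei of each class in the key. The nuclei fell along both axes in every panel. Among nuclei with at least 20 UMIs of Oxt and Avp together, at most 3 per library lay between the classes.

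Oxt-leading nuclei made up 34.9% (95% exact binomial interval 24.9 to 45.9), 34.2% (23.5 to 46.3), 33.6% (25.1 to 42.98) and 20% (9.58 to 34.6) of both classes together. The TRα1+m mean of 26.8 ± 9.63% (SD, n = 2) was -7.75 percentage points from the WT mean of 34.6 ± 0.451%, and the exact two-sided permutation test gave p = 0.333, the smallest it allows. Without TRα1+m repeat 2, which had 9 Oxt-leading nuclei, the class share differed by -0.944 points. With at least 50 hormone UMIs per nucleus the shares were 52, 34.2, 35.7 and 18.2%, where the genotypes overlapped.

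The classes differed in far more than their hormone. Library sums of Oxt-leading and Avp-leading nuclei were compared by edgeR with each library forming a block and Oxt and Avp left out, and 471 of 5057 genes passed an adjusted p of 0.05 (9.31%). Of these 242 (4.79%) were higher in Oxt-leading and 229 (4.53%) in Avp-leading nuclei, and 439 had the same direction in all 4 libraries. The difference was over 4-fold for 39 genes higher in Oxt-leading nuclei and 36 higher in Avp-leading nuclei. CPM values of this comparison leave Oxt and Avp out of the library sums, and log2 differences are Oxt-leading minus Avp-leading.

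Oxt-leading nuclei were marked by nitric oxide synthase and an NMDA receptor subunit. Nos1, the neuronal nitric oxide synthase, was at 234, 345, 109 and 234 CPM in Oxt-leading and 12.8, 6.67, 10.1 and 4.79 CPM in Avp-leading nuclei (log2 difference 4.50 ± 0.34 SE, edgeR adjusted p = 2.02e-14). Grin2a, the NMDA receptor subunit GluN2A, was at 884, 1269, 1140.3 and 1356 CPM against 51.2, 66.7, 136 and 148 (3.56 ± 0.19, adjusted p = 1.44e-18). Galnt14, an enzyme that starts O-glycans, was at 436, 363, 103 and 156 CPM against 9.598, 13.3, 5.03 and 4.79 (4.88 ± 0.31, adjusted p = 2.44e-16). For these 3 genes every Oxt-leading sum was above every Avp-leading sum. Other genes named on this side were, with their log2 differences, the adhesion gene Ntm (2.24), the adenylyl cyclase Adcy2 (1.97), the muscarinic receptor Chrm2 (2.23), the AMPA receptor partner Shisa6 (2.62), Luzp2 (1.70), Pld5 (1.81), Gm32647 (3.35) and Gm20713 (4.203). Gm20713 lies inside Gpc5 on the other strand, and the reads of such a pair were not separated here.

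Avp-leading nuclei were marked by a differentiation factor and a potassium channel partner. Ebf3, a helix-loop-helix factor of neuronal differentiation, was at 262, 213, 357 and 268 CPM in Avp-leading and 6.503, 6.16, 10.9 and 0 CPM in Oxt-leading nuclei (log2 difference -5.21 ± 0.37 SE, edgeR adjusted p = 3.88e-15). Kcnip4, a partner of A-type potassium channels, was at 26025, 27044, 22595 and 20750.2 CPM against 7336, 10256, 6348 and 6373 (-1.71 ± 0.11, adjusted p = 6.71e-16). Rbfox1, a neuronal splicing factor, was at 2812, 2545, 3203 and 2269 CPM against 449, 154, 424 and 358 (-3.05 ± 0.18, adjusted p = 9.56e-15). Here every Avp-leading sum was above every Oxt-leading sum. Pla2r1, first by its ratio to other neurons, was nearly confined to this class, with 29, 16, 60 and 22 UMIs in Avp-leading and 0, 1, 0 and 0 in Oxt-leading nuclei (adjusted p = 8.76e-09). The others named were the Notch coactivator Maml3 (-2.85), the zinc finger gene Zfp804a (-1.999), the sarcoglycans Sgcz (-1.97) and Sgcd (-1.87), the adhesion gene Sdk1 (-2.18), the glycosyltransferase Galntl6 (-2.35), the reelin adaptor Dab1 (-1.76), the adenylyl cyclase Adcy8 (-2.22) and Mcc (-2.88).

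**Figure D3:**
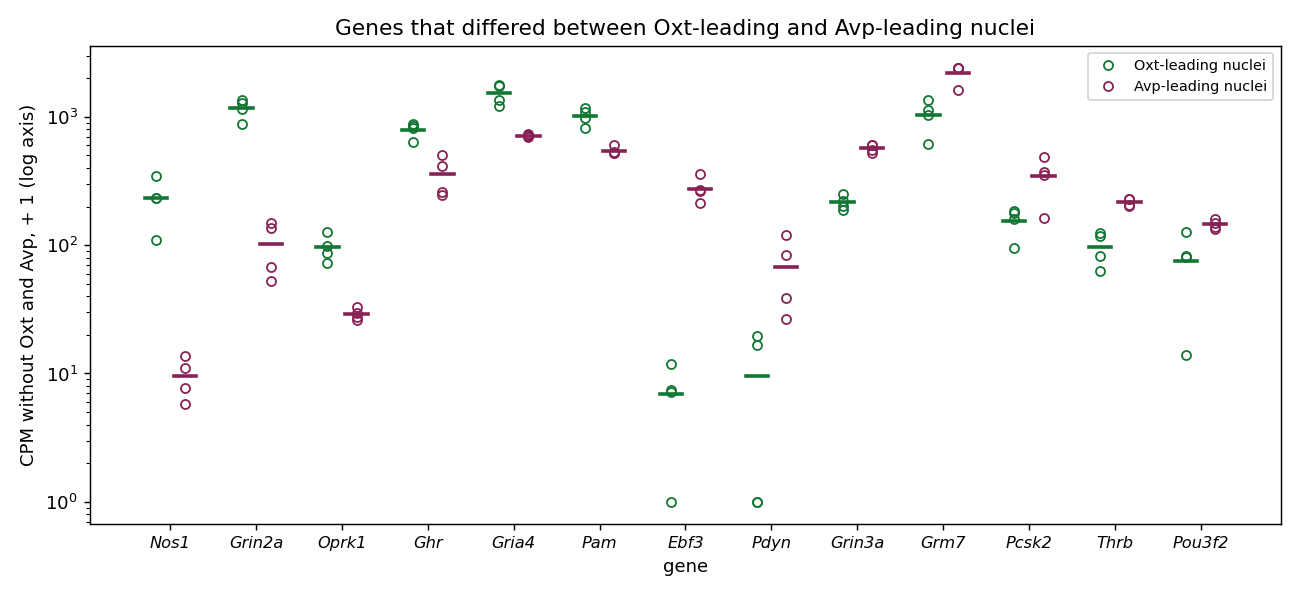
CPM, computed without Oxt and Avp and plus 1 on a log axis, of named and listed genes in Oxt-leading and Avp-leading nuclei, with a circle per library and a bar at the mean of 4. Nos1, Grin2a and Ebf3 had no overlap between the classes.

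The dynorphin precursor and its receptor lay on opposite sides. Pdyn, the precursor of the opioid dynorphin, was at 66.6 ± 43.3 CPM (SD, n = 4) in Avp-leading and 8.52 ± 9.904 CPM in Oxt-leading nuclei (log2 difference -2.95 ± 0.58 SE, edgeR adjusted p = 0.00018). It had 8, 25, 15 and 25 UMIs in Avp-leading and 0, 3, 0 and 1 in Oxt-leading nuclei, so the size of the difference rests on few UMIs. Oprk1, the dynorphin receptor, was on the other side, with 95.04 ± 22.5 CPM in Oxt-leading and 28.1 ± 2.96 CPM in Avp-leading nuclei (1.68 ± 0.33, adjusted p = 0.000223). Of 6 tested co-expressed transmitters and peptides, Nos1 and Pdyn passed, beside 9.31% of all genes, and Gal, Cartpt, Nucb2 and Tac1 did not. Of 14 tested processing and granule genes 3 passed, against the same share. Pam, which amidates both hormones, was higher in Oxt-leading nuclei (0.88 ± 0.15, adjusted p = 1.01e-05), and the convertase Pcsk2 (-1.18 ± 0.19, adjusted p = 8.61e-06) and the carboxypeptidase Cpe (-0.55 ± 0.16, adjusted p = 0.0196) were higher in Avp-leading nuclei. Caprin2 (-0.63 ± 0.18, adjusted p = 0.0153) and Pou3f2 (-1.09 ± 0.30, adjusted p = 0.0157) were higher in Avp-leading nuclei too, Caprin2 in 3 of 4 libraries. Sim1 (-0.31 ± 0.15) and Arnt2 (-0.13 ± 0.18) did not pass.

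Receptors differed in both directions. Of 21 tested glutamate and GABA receptor genes 8 were higher in Oxt-leading nuclei, 2 in Avp-leading nuclei, and 11 did not pass, beside 4.79% and 4.53% of all genes. The AMPA receptor subunit Gria4 was at 1519 ± 275 CPM in Oxt-leading and 714 ± 17.8 CPM in Avp-leading nuclei (log2 difference 1.06 ± 0.14 SE, edgeR adjusted p = 1.45e-07). Gria1, Gria3, Gabrb2 and Gabrg3 were higher in Oxt-leading nuclei by 0.51 to 0.87, Gria3 in 3 of 4 libraries. Grin3a, the subunit GluN3A, was at 215 ± 27.2 against 567 ± 40.5 CPM (-1.39 ± 0.17, adjusted p = 2.4e-08), and the presynaptic receptor Grm7 was also higher in Avp-leading nuclei (-1.17 ± 0.20, adjusted p = 0.000986). Of 10 tested hormone and peptide receptors 5 were higher in Oxt-leading nuclei and 1 in Avp-leading nuclei, beside the same shares. The growth hormone receptor Ghr was at 792 ± 109 against 355 ± 125 CPM (1.21 ± 0.16, adjusted p = 2.12e-07), and Oprk1, the prolactin receptor Prlr (1.80 ± 0.48, adjusted p = 0.00771) and oestrogen receptor beta, Esr2 (1.85 ± 0.55, adjusted p = 0.0205), were on the same side. Prlr was on this side in 3 of 4 libraries, with 11, 19, 7 and 0 UMIs in Oxt-leading and 8, 5, 5 and 2 in Avp-leading nuclei. Oestrogen receptor alpha, Esr1, was at 11.2 ± 7.61 against 42.2 ± 14.96 CPM (-1.91 ± 0.63, adjusted p = 0.044). It had 2, 0, 3 and 1 UMIs in Oxt-leading and 17, 16, 9 and 8 in Avp-leading nuclei. Esr2 had 9, 9, 7 and 3 UMIs against 5, 3, 7 and 1. The differences of both oestrogen receptors thus rest on few UMIs. The median log2 difference was 0.76 over the tested hormone and peptide receptors, 0.16 over the glutamate and GABA receptors and 0.01 over all genes.

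In 3 further lists a single gene each passed, of 11, 8 and 8 tested, which is near the 9.31% of all genes and so is no result about these lists. Kcnn3, a calcium-activated potassium channel, was the one of 11 tested excitability genes that passed, with 69.7 ± 23.2 CPM in Avp-leading and 24.2 ± 16.9 CPM in Oxt-leading nuclei (log2 difference -1.504 ± 0.39 SE, edgeR adjusted p = 0.00652). In Oxt-leading nuclei it had 5, 7, 1 and 1 UMIs. Of 8 tested thyroid hormone receptors, transporters and response genes Thrb, the receptor TRβ, passed, with 215 ± 15.2 against 96.1 ± 29.1 CPM (-1.10 ± 0.22, adjusted p = 0.000245). Thra, the mutated gene, was at 114 ± 18.7 and 105 ± 65.9 CPM (-0.32 ± 0.27). Lrrtm4, a postsynaptic adhesion gene, was the one of 8 synaptic adhesion genes that passed (-0.43 ± 0.12, adjusted p = 0.0149). None of 11 mitochondrial transcripts, 5 nuclear RNAs, 4 other hypothalamic peptides or the magnocellular markers Calb1 and Kcnmb4 passed.

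The comparison of genotypes asked whether the receptor mutation changed these neurons. Over all member nuclei 0 of 7889 genes (0%) passed in edgeR without a term for the repeat, 256 had an unadjusted p under 0.05, and DESeq2 called 0. With the repeat as a block 24 genes passed (0.304%), 5 higher and 19 lower in TRα1+m. The repeats pair the libraries, so both values are given. In summed nuclei, fewer nuclei of a subtype and less RNA in each cannot be told apart. Of 11 tested mitochondrial transcripts 0 passed in either fit. All 11 had negative values, with a median log2 difference of -0.22 without the block and -0.26 with it. The median mitochondrial share per nucleus was 0.785, 0.874, 0.570 and 0.685%, lower in both TRα1+m libraries. It was 0.768, 0.823, 0.655 and 0.637% in Avp-leading nuclei, lower in both too. In Oxt-leading nuclei it was 0.755, 0.931, 0.539 and 1.05%, highest in TRα1+m repeat 2. The part of this in the genotype results was not tested.

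Gpc5, a heparan sulphate proteoglycan of the cell surface, was at 947, 964, 2168 and 2138 CPM (log2 difference of TRα1+m from WT 1.12 ± 0.13 SE, edgeR adjusted p = 0.141, and 0.00147 with the block). Dcc, the netrin receptor, was at 1769.5, 1186, 3011 and 3557 CPM (1.10 ± 0.19, adjusted p = 0.346, and 0.00935 with the block). The receptor tyrosine kinase Alk was at 142, 96.4, 322 and 221 CPM (1.15 ± 0.27, adjusted p = 0.981, and 0.0108 with the block). In each of these both TRα1+m libraries were above both WT libraries. Hdac9, a histone deacetylase, was at 1128, 985, 2046 and 1923 CPM (0.86 ± 0.14, adjusted p = 0.253, and 0.00496 with the block), and AC149090.1 at 251, 156, 607 and 355 CPM (1.20 ± 0.31, adjusted p = 0.9998, and 0.00496 with the block). The paper reported AC149090.1 as higher in TRα1+m in several neuronal sub-clusters, so a higher level is not particular to these nuclei. Other named genes with positive values passed in neither fit, with log2 differences of 1.15 for Gm20713, 1.75 for Gm28807, 1.11 for Pcgf5 and 0.49 for Dgkb.

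With the block 19 genes were lower in TRα1+m, among them 1 of 9 tested synaptic adhesion genes and 0 of 12 tested excitability genes, beside 0.304% of all genes in both directions, and without the block 0 passed. Zfp804a was at 1693, 1658, 872 and 833 CPM (log2 difference -1.03 ± 0.14 SE, edgeR adjusted p = 0.159, and 0.00228 with the block). Nell1, a secreted ligand, was at 187, 181, 49.5 and 9.76 CPM, the last from 3 UMIs (-2.47 ± 0.45, adjusted p = 0.524, and 0.00643 with the block). Trpc5, a receptor-operated cation channel, was at 652, 422, 239.8 and 124 CPM (-1.57 ± 0.33, adjusted p = 0.826, and 0.00147 with the block). Both TRα1+m libraries were below both WT libraries in each case. The same held for Lrrtm4 at 6329.6, 6464, 4021 and 3697 CPM (-0.78 ± 0.12, adjusted p = 0.253, and 0.00666 with the block), and for Galnt14 (-1.93), Cadm2 (-0.99), Sgcz (-1.09), Ncam2 (-1.26), Dgki (-1.01) and Zfpm2 (-1.16), which passed with the block and not without it.

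Of the hormones, Oxt passed with the block only and Avp in neither fit, and the difference between their genotype effects was not tested. Oxt was 0.606 times the WT level in TRα1+m of repeat 1 and 0.385 times in repeat 2. The genotypes overlapped, and the log2 difference was -1.31 ± 1.35 SE without the block (edgeR adjusted p = 0.9998) and -1.11 with it (adjusted p = 0.00604). Without WT repeat 2 it was 0.36. Avp was 1.18 and 0.989 times the WT level and passed in neither fit (-0.04 ± 1.57, adjusted p = 0.9998, and 0.965 with the block). Oxt-leading nuclei held 107, 620.1, 56.6 and 375 Oxt UMIs per nucleus, lower in TRα1+m within each repeat, as a description, since Oxt chose these nuclei. Outside the members Oxt in TRα1+m was at 0.701 and 0.633 times WT in astrocytes and 0.9297 and 0.389 times in AVasopressin nuclei. The value of 0.9297 depended on a single nucleus, which held 126 of the 414 Oxt UMIs of AVasopressin nuclei in TRα1+m repeat 1. In GABA neurons Oxt in TRα1+m was at 0.435 and 0.477 times WT. Without the single GABA nucleus described earlier, WT repeat 1 was at 298 CPM there, against 222 in TRα1+m repeat 1. In tanycytes Oxt was at 537, 115, 1932 and 57.5 CPM, higher in TRα1+m in repeat 1 and lower in repeat 2. In repeat 1 a smaller share of tanycytes held an Oxt UMI in TRα1+m, 53.9% against 66.9% in WT. Of all non-neuronal nuclei of TRα1+m repeat 1, 4 held at least 20 Oxt UMIs and 1 at least 100. The direction in tanycytes of repeat 1 may thus rest on a few nuclei. The part of these levels in the members' difference was not tested.

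Within Oxt-leading nuclei the genotypes differed in 15 of 3525 genes (0.426%) without a block, 7 higher and 8 lower in TRα1+m, and all 15 were among the 42 called with it. Gpc5 was at 2446, 2119, 6287 and 8305 CPM (log2 difference 1.65 ± 0.20 SE, edgeR adjusted p = 9.72e-05). Lrrtm3, a synaptic adhesion gene of the family of Lrrtm4, was at 567, 483, 1839.98 and 1702 CPM (1.74 ± 0.22, adjusted p = 0.000133). Nkain3, whose protein interacts with the sodium pump, was at 115, 56.2, 306 and 444 CPM (2.07 ± 0.39, adjusted p = 0.0105). Both TRα1+m libraries were above both WT libraries in each. Hdac9 (1.23), the collagen Col23a1 (2.21), Gm20713 (1.60) and the catenin Ctnna3 (1.32) were also higher. Gm20713 lies within Gpc5 (chr14:115092215-116525179) and Lrrtm3 (chr10:63928472-64090277) within Ctnna3, each on the opposite strand of its host.

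In TRα1+m Oxt-leading nuclei 8 genes were lower. Dgki, a diacylglycerol kinase, was at 1178, 1074, 338 and 311 CPM (log2 difference -1.80 ± 0.25 SE, edgeR adjusted p = 0.000367). Mctp1, a calcium-binding membrane protein, was at 433, 714, 102 and 88.8 CPM (-2.58 ± 0.36, adjusted p = 0.000367). Nell1 was at 261, 320.4, 42.9 and 29.6 CPM, the last from 2 UMIs of a single nucleus (-2.91 ± 0.45, adjusted p = 0.00114). Both TRα1+m libraries were below both WT libraries in each, and also for Lrrtm4 (-1.07), Ncam2 (-1.66), Zfp804a (-1.54), Galnt14 (-1.71) and Dok6 (-1.33). TRα1+m repeat 2 was represented by 9 nuclei, and the nucleus with most UMIs held 38.7% of its Gpc5, 26.1% of its Lrrtm3 and 23.8% of its Dgki UMIs. DESeq2 called 11 genes, all among the 15, and not Col23a1, Gm20713, Galnt14 or Dok6. Without TRα1+m repeat 2 all 15 remained among 23 calls, and without WT repeat 1 all but Col23a1 and Galnt14 remained. Without WT repeat 2, and likewise without TRα1+m repeat 1, 9 of the 15 remained, and Gpc5, Lrrtm3, Dgki, Mctp1, Nell1 and Lrrtm4 passed in all 11 settings run.

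In Avp-leading nuclei 0 of 5966 genes (0%) passed in edgeR without the block, 190 had an unadjusted p under 0.05, DESeq2 called 0, and 70 passed with the block. Lrrtm4 was at 6856, 6755, 4610.04 and 3992 CPM (log2 difference -0.70 ± 0.13, adjusted p = 0.26, and 0.000373 with the block) and Zfp804a at 2161, 2263, 1218 and 1075 CPM (-0.98 ± 0.14, adjusted p = 0.234, and 6.21e-08 with the block), lower in both TRα1+m libraries. Hdac9 was at 1185, 1012, 1799 and 2037 CPM, higher in both (0.77 ± 0.15, adjusted p = 0.423, and 0.000176 with the block).

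The difference in genotype effect between the classes was tested itself, and 11 of 5057 genes passed (0.218%). Gpc5 led with a difference of 1.99 ± 0.25 SE on the log2 scale (edgeR adjusted p = 1.13e-05), and in Avp-leading nuclei it was at 282, 286, 221 and 218 CPM. Lrrtm3 was at 482, 365, 340.5 and 322 CPM there (2.08 ± 0.27, adjusted p = 1.44e-05). Nkain3 was at 263, 330.03, 162 and 145 CPM there, lower in both TRα1+m libraries (2.98 ± 0.42, adjusted p = 6.31e-05). These 3 were also called by DESeq2, which called none of the other 8. Trpc5 was at 70.1, 73.1, 156 and 118 CPM in Oxt-leading and 859, 635, 288 and 122 CPM in Avp-leading nuclei (2.66 ± 0.44, adjusted p = 0.000776). Tafa1, a secreted ligand, was at 1478, 1540.2, 1684 and 1199 CPM in Oxt-leading and 152, 217, 564 and 377 CPM in Avp-leading nuclei, so that the classes lay closer in TRα1+m (-1.45 ± 0.27, adjusted p = 0.00397). The classes also lay closer in TRα1+m for Nrg1, an ErbB ligand (-1.69 ± 0.26, edgeR adjusted p = 0.000196). Unlike Tafa1, Nrg1 was lower in Oxt-leading nuclei, and higher in Avp-leading nuclei, in both TRα1+m libraries. Mctp1 (-2.53) and Dgki (-1.53) were lower in TRα1+m in Oxt-leading relative to Avp-leading nuclei.

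**Figure D4:**
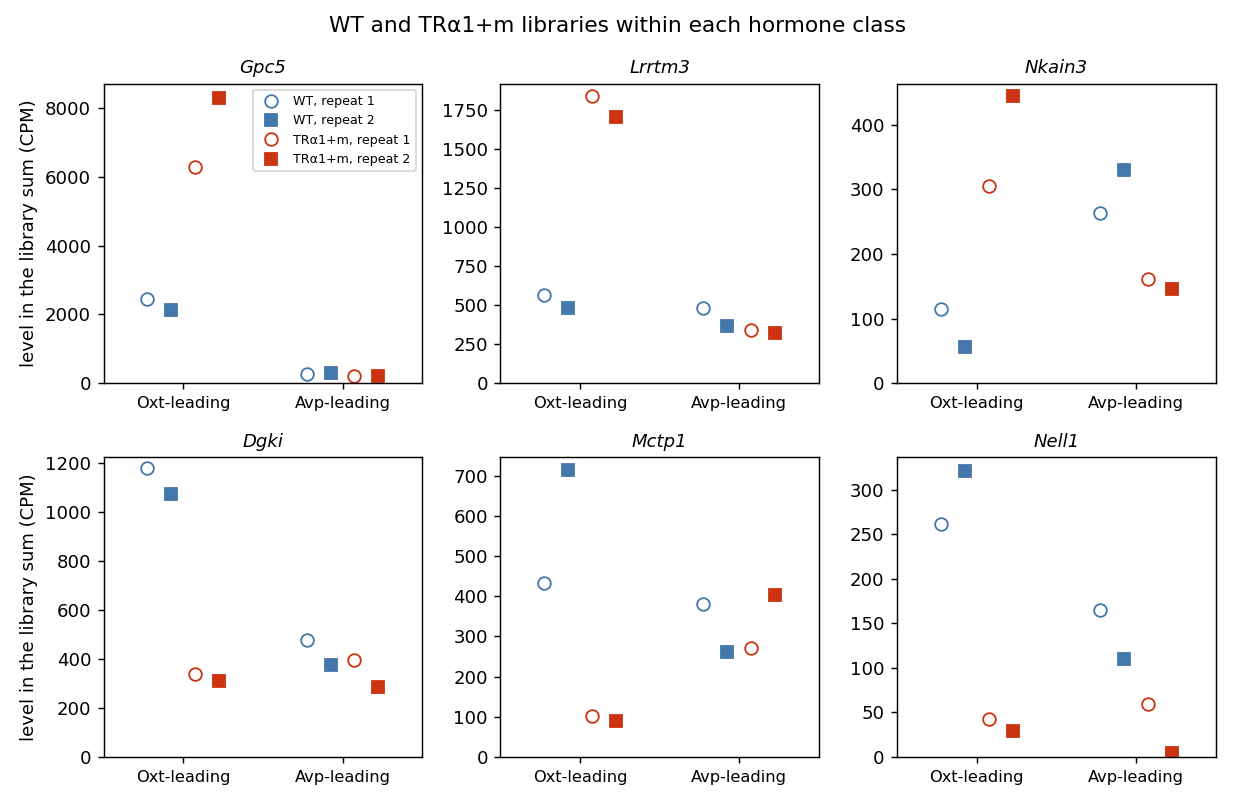
CPM of 6 genes in the summed Oxt-leading and Avp-leading nuclei, with a point per library coloured by genotype and shaped by repeat. In Oxt-leading nuclei Gpc5, Lrrtm3 and Nkain3 were higher and Dgki, Mctp1 and Nell1 lower in both TRα1+m libraries, and in Avp-leading nuclei Gpc5 stayed between 218 and 286 CPM.

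The genotype effect was then compared with that in AVasopressin nuclei and in the 15042 GABA neurons. Against AVasopressin 5 of 9782 genes passed (0.0511%), and DESeq2 called 0. Fat3, an atypical cadherin, was at 547, 386, 196 and 58.6 CPM in the Oxytocin+, AVP nuclei and 212, 162, 245 and 154 CPM in AVasopressin (interaction -1.95 ± 0.23 SE, edgeR adjusted p = 5.72e-05). Against GABA neurons 35 of 16783 genes passed (0.209%), but 1 with the other setting of the legacy argument of the edgeR fit, which was Gpc5. Gpc5 was at 408, 362, 383 and 385 CPM in GABA neurons (1.16 ± 0.18, adjusted p = 4.89e-07). Nell1 was at 417, 367, 389 and 349 CPM there (-2.31 ± 0.26, adjusted p = 4.94e-15) and Dcc at 1924, 1936, 1865 and 1726 CPM (1.26 ± 0.19, adjusted p = 5.64e-08). Both comparisons share the same member libraries.

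**Figure D5:**
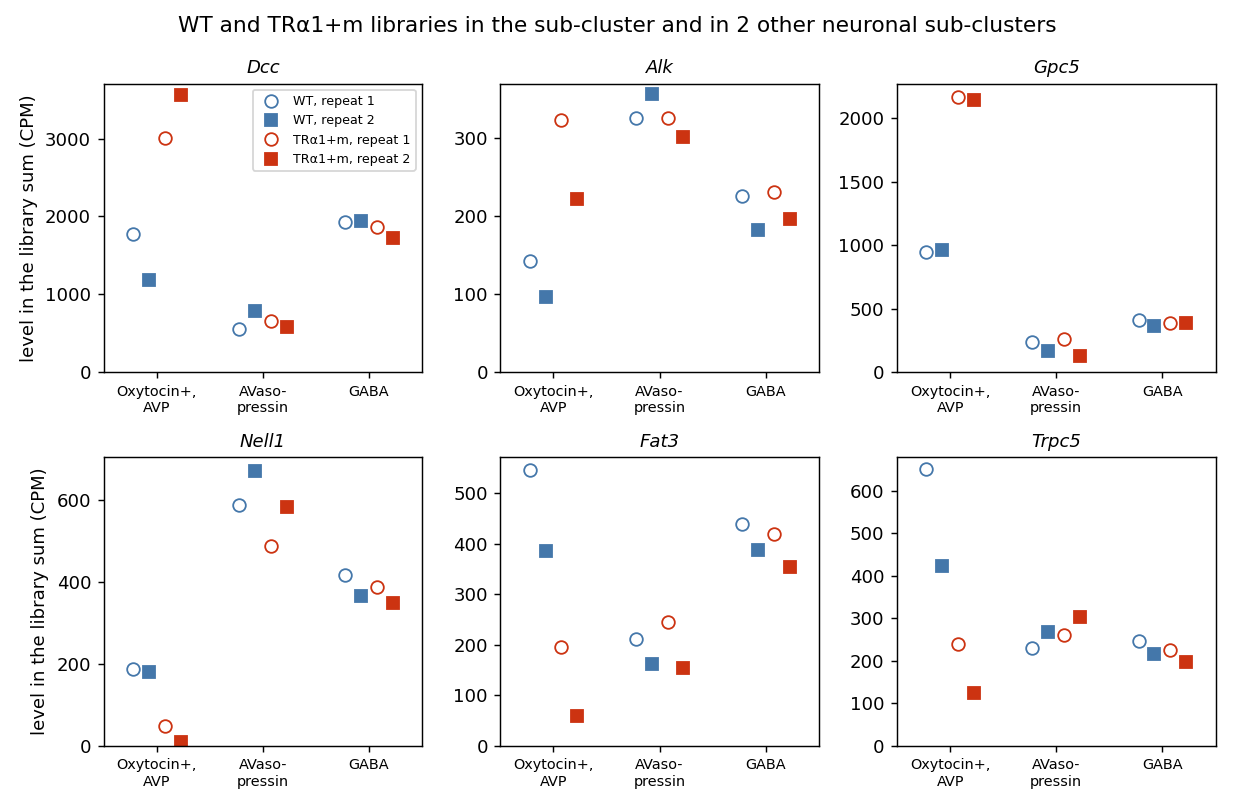
CPM of 6 genes in the Oxytocin+, AVP, AVasopressin and GABA sub-clusters, with a point per library coloured by genotype and shaped by repeat. In the Oxytocin+, AVP nuclei Dcc, Alk and Gpc5 were higher and Nell1, Fat3 and Trpc5 lower in both TRα1+m libraries. The ratio of the highest to the lowest library was smaller in GABA neurons for each gene. This is a description only, since the genes were named by the comparison with GABA neurons.

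Genes tied to thyroid hormone were then read between genotypes. Of 23 listed receptors, transporters and response genes 9 could be tested over all member nuclei, and 0 passed with or without the block, beside 0.304% and 0% of all genes, so that the count of 0 says nothing about this list. Thra was at 87.2, 114, 89.9 and 137 CPM (log2 difference 0.08 ± 0.29 SE) and Thrb at 207, 156, 153 and 169 CPM (-0.23 ± 0.23). The genotypes overlapped for both genes. Klf9, a hormone-responsive factor, rested on 53 UMIs, and Hr and Dio2 on 2 each. The median log2 difference of the tested list was -0.23, beside 0.00 over all genes. Of the 9 genes 8 had a negative value in each fit, as had 3916 of all 7889 genes without the block. Of 7 genes that the study chose in neurons on these same libraries, which makes them no independent evidence, AC149090.1, Lrrtm4 and Oxt passed with the block, and the others, among them Grm8, mt-Atp6 and mt-Co3, did not.

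The repeats differed in more genes than the genotypes did in the same fit. Of 7889 genes 198 passed between repeats (2.51%), 111 higher and 87 lower in repeat 2. Avp (log2 difference 2.52 ± 0.11 SE, edgeR adjusted p = 7.47e-07) and Oxt (2.09 ± 0.15, adjusted p = 5.34e-05) were among them. Erp29, a chaperone of the endoplasmic reticulum, was at 138, 461, 145 and 559.7 CPM (1.86), Rnasek at 125, 372, 147 and 517 CPM (1.71) and Atp6v0c, a subunit of the vacuolar proton pump, at 342, 829, 366 and 950.2 CPM (1.34). Both repeat 2 libraries were above both repeat 1 libraries for these. Of 15 tested processing and granule genes the convertase Pcsk1 (0.75), its inhibitor Pcsk1n (0.81) and the chaperone Scg5 (0.90) were higher in repeat 2, and of 6 tested co-expressed peptides and transmitters Gal (1.85) and Pdyn (1.73) were. The metallothionein Mt3 was at 243, 59.8, 354 and 52.1 CPM (-2.32), and Pcdh15 (-1.37), Trpm3 (-1.59), the ribosomal genes Rps21 (-1.47) and Rpl39 (-2.05), and the nuclear RNA Malat1 (-0.83 ± 0.13, adjusted p = 0.00586) were lower in repeat 2. Of 5 tested nuclear RNAs 1 more passed, Snhg11, at 4273, 5693, 4103 and 8555 CPM and higher in repeat 2 (0.75 ± 0.14, adjusted p = 0.0139). What set the repeats apart was not tested.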

How the data were processed

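The authors pooled nuclei of 3 mice per library, counted UMIs with introns using Cell Ranger 5.0.1 on mm10 (GRCm38), kept 56386 nuclei (minimum 900 counts and 700 features, maximum 5% mitochondrial, doublet score below 0.18), corrected neurons across repeats and annotated the sub-clusters used here. The deposited matrices are raw UMI counts of 32285 genes, without normalisation. Kept nuclei held 51877331, 59112785, 55366391 and 47260127 UMIs per library.

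Counts of member nuclei were summed per library, and of each hormone class. Genes passing filterByExpr were scaled by TMM and tested two-sided with the robust quasi-likelihood method of edgeR 4.0.16 in R 4.3.3, with Benjamini-Hochberg adjustment over all genes tested, at 0.05. The SE is the log2 difference over the root of F. Alternatives included DESeq2 1.42.0, RLE scaling, all genes unfiltered, the replicate block, the other legacy setting, libraries left out, 48 nuclei per library and other class limits. Shares used scipy 1.17.1. Fits were run on simulated data without a difference between repeats, so the share of changes found there does not carry over to these data.

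The methods give each repeat a library per genotype, and repeat differences correlated between genotypes (Pearson r 0.369 across 7889 genes, which are not independent). A block leaves 1 residual degree of freedom per gene. Nothing states that libraries came from different litters, so p-values measure the spread between pools.

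Named genes were listed genes plus those with the smallest p in both directions (10 for genotype, 12 for class, 5 for repeats and interactions) and, for ratios, the top 25 above 20 CPM. Members, lists and rules were chosen with earlier results of these data known. Fits within hormone classes and their interaction were added later, and their named genes were chosen after their values were seen. Of the gene identifiers, 32235 matched GENCODE M21. Clustering and doublet scores were not repeated, and reads of overlapping genes on opposite strands were not separated here. Some genes that met these rules are not reported here.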

Additional observations from a re-analysis of the deposited data

Results flagged for a closer look

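The effect of genotype in the Oxytocin+, AVP sub-cluster differed from that in AVasopressin neurons, by the edgeR test of the interaction, for 5 genes. On the log2 scale, with positive values for a greater rise in the sub-cluster, the differences were 1.57 for Kcnmb2, 1.30 for Alk, -1.95 for Fat3, -1.004 for Cdh18 and -1.30 for Zfpm2. With each library left out in turn Fat3 alone passed every time, and DESeq2 called 0 of the 5.

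Against GABA neurons the same test passed for the 10 genes named by the rule. The differences were 1.26 for Dcc, 1.16 for Gpc5, 1.13 for Alk, 1.14 for Bach2, 0.94 for Mgat4c, -2.31 for Nell1, -1.68 for Fat3, -1.38 for Trpc5, -1.06 for Grik1 and -0.97 for Zfp804a. Of all 35 calls against GABA neurons 12 passed in DESeq2. With the other legacy setting 1 passed, Gpc5.

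Between Oxt-leading and Avp-leading nuclei 11 genes passed, chosen after their values were seen. The difference was 1.99 for Gpc5, 2.08 for Lrrtm3, 2.98 for Nkain3, 2.66 for Trpc5, 1.77 for Egfem1 and 1.503 for Ctnna3, and -1.69 for Nrg1, -2.53 for Mctp1, -1.45 for Tafa1, -1.53 for Dgki and -3.35 for Il1rapl2. The last is a fitted value that depends on the prior count, since the Oxt-leading nuclei of TRα1+m repeat 2 held no Il1rapl2 UMI. DESeq2 called 3 of the 11, Gpc5, Lrrtm3 and Nkain3. Il1rapl2 lost its call with the other legacy setting too.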

How the results depend on the processing

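Calls between genotypes over all member nuclei numbered 0 in the fit as reported, 24 with the replicate block, 25 with the replicate block and the other legacy setting, 14 in DESeq2 with the replicate block, 19 without the filter, 2 with equal numbers of nuclei, and 2 to 67 with a library left out, the most without TRα1+m repeat 1. In Avp-leading nuclei they numbered 0, then 70 with the replicate block, 21 without the filter and 3 to 29 with a library left out. In Oxt-leading nuclei the 15 calls became 42 with the replicate block and 9 to 23 with a library left out. The Oxt genotype difference of -1.31 passed with the replicate block (-1.11, also with the other legacy setting, and -1.098 in DESeq2 with the block), and turned to 0.36 without WT repeat 2, within a range of -2.44 to 0.36 with a library left out. The Avp genotype difference of -0.04 turned to 0.0540 with the replicate block under both legacy settings and to 0.0601 in DESeq2 with it, and was -1.68 to 1.82 with a library left out.

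The 471 class calls became 235 in DESeq2 and 248 without the replicate block, where the filter kept 4007 genes in place of 5057, and 313 to 425 with a library left out. The class share difference of -7.75 points became -16.2 with at least 50 UMIs. The 5 interaction calls against AVasopressin became 0 in DESeq2, 13 with RLE, 33 without the filter, 2 with the other legacy setting and 6 to 9 with a library left out, of which 1 to 4 were among the 5 and Fat3 alone was among them each time. The 35 against GABA became 12 in DESeq2, 1 with the other legacy setting and 7 to 58 with a library left out, of which 6 to 24 were among the 35. The 11 between classes became 3 in DESeq2 and 10 to 26 with a library left out. The 198 repeat calls became 46 in DESeq2 and 421 without the filter. The cause of these moves was not tested. No other gene named by smallest p, or called within Oxt-leading nuclei or between classes, changed direction under an alternative. The directions of the remaining listed genes were not followed through the alternatives.

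The replicate block also changed the calls of the genes given with it above. With 2 libraries per genotype a left-out library leaves a lone one, which is assumed to vary like the others. The thin limit is the 9 Oxt-leading nuclei of TRα1+m repeat 2.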
